A study of Mus musculus with 8 samples.

Results

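Of the 4832 windows of 500 kb that tile the 19 mouse autosomes, 984 (20.4%) contained no base of an H3K27me3 peak in morulae injected with the mutant demethylase mRNA. These windows were chosen by that peak list (Kdm6bMUT). The tiling started after the first 3 Mb of each chromosome in mm9 coordinates and ended at the last peak of either list, and every base of a window had to lie outside the Kdm6bMUT peaks. The windows add up to 491 Mb of the 2411 Mb tiled. They are called peak-free windows below, and the remaining 3848 are called occupied windows. Kdm6bMUT coverage defines both groups, so differences in it are descriptions. The Kdm6bWT list entered only through the end of the tiling. The 2 shortened peak-free windows at chromosome ends, on chromosomes 1 and 11, end at a Kdm6bWT peak and so each hold 1 by construction.

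The peak lists come from morulae, early mouse embryos before the blastocyst stage, labelled as BDF1xPWK hybrids from 8-week-old BDF1 mothers. Fertilized eggs were injected with Kdm6b mRNA (Kdm6bWT) or with that of a mutant (Kdm6bMUT), both at 1.8 µg/µl. Injection began 2.5 hours after fertilization and was complete by 4 hours. Both groups thus received some form of Kdm6b mRNA. The injection protocol in the labels names BDF1 sperm, whereas the strain label gives PWK as the second parent, and both input libraries are tagged as not injected. Each list rests on 1 ultra-low-input native ChIP library called against input, without replicates. The lists differ widely in size. The Kdm6bMUT list holds 90158 peaks (88804 autosomal) and the Kdm6bWT list 4991 (4788 autosomal). The Kdm6bMUT list also admits peaks with a −log10 p below 3.67, the lowest value in the Kdm6bWT list. The number of embryos per ChIP library is not given in the sources used here. The lists hold no expression values, so the labelled stage was not checked against marker genes.

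H3K27me3 is the trimethyl mark that Polycomb repressive complex 2 places on histone H3, and Kdm6b is an enzyme that removes it. In oocytes the mark spreads over broad domains, many of them far from genes or over inactive genes. Maternal domains can persist through cleavage stages and keep the maternal allele of some genes silent. Stretches without the mark are known to include actively transcribed, gene-rich regions. They also include sequence that is silenced in other ways, such as by H3K9 methylation over clustered gene families. Mappability, assembly gaps and read depth were not analysed here, so their part in the absence of peaks was not tested.

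Peak-free windows lay on every autosome and were more frequent towards the start of each chromosome, the centromeric end in the mouse. Within 10 Mb of the start of the tiling, 154 of 380 windows (40.5%) were peak-free. Between 10 and 25 Mb the share was 183 of 570 (32.1%), between 25 and 50 Mb it was 183 of 950 (19.3%), and beyond 50 Mb it was 464 of 2932 (15.8%). The share was higher in the first 25 Mb than in the rest of the chromosome on 19 of the 19 autosomes. The distal ends did not share this excess. Of the last 10 windows of each chromosome, 31 of 190 (16.3%) were peak-free, against 71 of 190 (37.4%) for the first 10. The first window itself was peak-free on only 3 chromosomes.

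**Figure D1:**
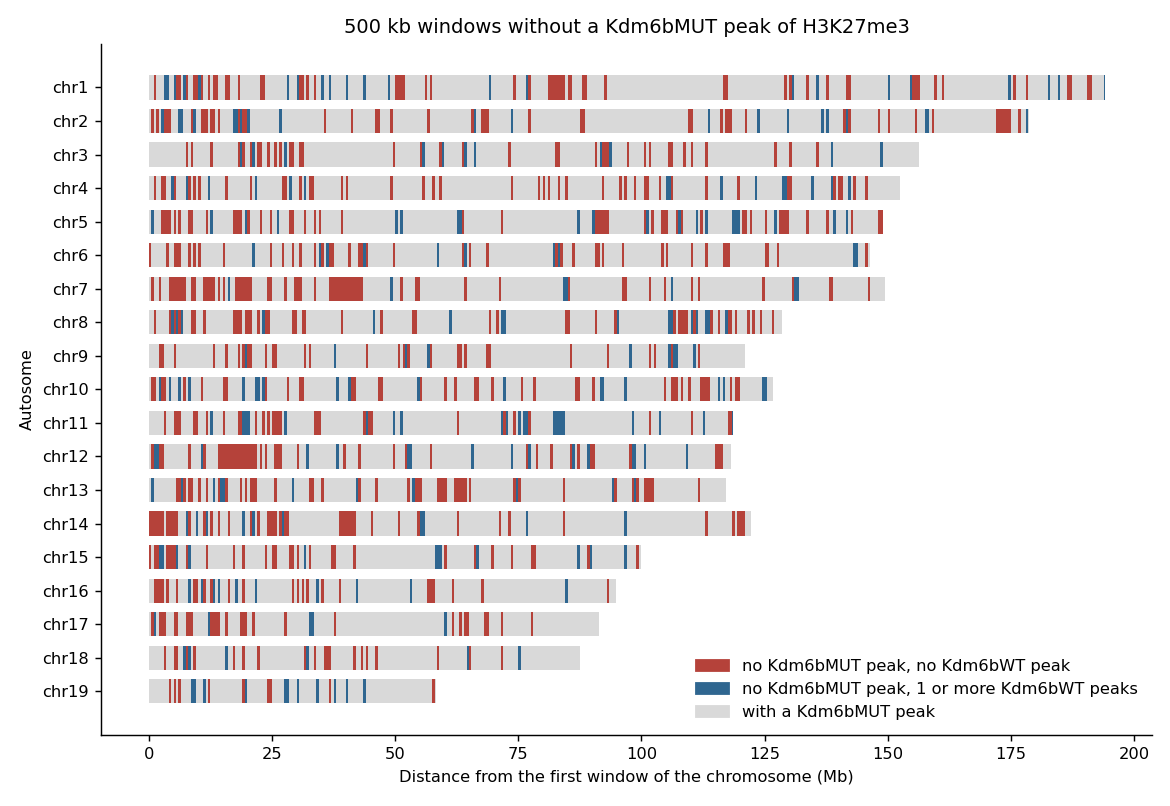
Each horizontal bar is 1 autosome, drawn from its first window, with the distance in Mb on the x axis. Windows without a Kdm6bMUT peak are red where they also lack a Kdm6bWT peak and blue where they hold at least 1. Occupied windows are grey. The 984 coloured windows are denser towards the left of each bar, and the widest red blocks are on chr12 and chr7.

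The share of peak-free windows differed by less than 2-fold between autosomes. It was highest on chromosome 12 (59 of 237 windows, 24.9%), chromosome 8 (62 of 258, 24.0%) and chromosome 13 (56 of 235, 23.8%). The lowest shares were on chromosome 18 (26 of 176, 14.8%), chromosome 3 (48 of 313, 15.3%) and chromosome 9 (39 of 243, 16.0%). The median over the autosomes was 20.5%. A low overall coverage did not go with a high share in every case. Chromosome 19, where Kdm6bMUT peaks covered 5.81% of the tiled length, had 20 peak-free windows of 117 (17.1%). Chromosome 12, with 9.17% covered, had the highest share. On the X chromosome, tiled in the same way for comparison, 194 of 328 windows (59.1%) had no Kdm6bMUT peak.

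Peak-free windows were grouped. The 984 windows formed 580 unbroken runs, of which 373 were single windows, 111 were pairs, 76 had 3 or 4 windows and 20 had 5 or more. Among the windows next to a peak-free window, 41.2% were themselves peak-free, against 15.1% of those next to an occupied window. The 20 runs of at least 5 windows held 135 windows on 12 chromosomes. Chromosome 7 had 4 of these runs, chromosome 14 had 3, and 7 autosomes had none. On chromosome 14 the run ending at 6000000 and the run starting at 6500001 were split by a single window. That window had 0.936 kb of Kdm6bMUT coverage and no Kdm6bWT peak.

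The longest run spanned 16 windows on chromosome 12 (17000001 to 25000000), 8 Mb in which neither list had a peak. Measured from peak to peak, the stretch without Kdm6bMUT peaks there was 8.69 Mb, and 2 Kdm6bWT peaks lay beyond the run, in its distal flank. The next run had 14 windows on chromosome 7 (39500001 to 46500000, 7 Mb), within a stretch of 7.84 Mb, and was also empty in both lists. Only these 2 stretches exceeded 5 Mb, whereas the median of the 952 Kdm6bMUT-free stretches of at least 500 kb was 0.805 Mb.

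Of the 6 runs of 7 windows, each 3.5 Mb long, 4 had no Kdm6bWT peak. These lay on chromosome 1 (84000001 to 87500000), chromosome 7 (7000001 to 10500000 and 20500001 to 24000000) and chromosome 14 (41500001 to 45000000). The other 2 runs of this length held Kdm6bWT peaks: 5 on chromosome 2 (20000001 to 23500000) and 2 on chromosome 5 (93000001 to 96500000). Among the runs of 6 windows, each 3 Mb long, that on distal chromosome 2 (175000001 to 178000000) had no peak of either list. A run of the same length on chromosome 8 (7000001 to 10000000) held 4 Kdm6bWT peaks. The third of this length, the first 3 Mb tiled on chromosome 14 (ending at 6000000), had no peak of either list.

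The borders of these runs ranged from densely covered to nearly bare. The distal chromosome 2 run was flanked by occupied windows with 118 kb and 175 kb of Kdm6bMUT coverage, each holding 2 Kdm6bWT peaks. On chromosome 7 the run from 7000001 to 10500000 lay between windows with 86.4 kb and 22.6 kb, and its proximal neighbour held 4 Kdm6bWT peaks. The run on chromosome 8 lay between windows with only 1.62 kb and 0.326 kb. For comparison, the median occupied window carried 35.2 kb (quartiles 8.91 and 93.3 kb). Occupied windows directly beside a peak-free window carried a median of 12.4 kb (1037 windows), against 48.3 kb for the other 2811.

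**Figure D2:**
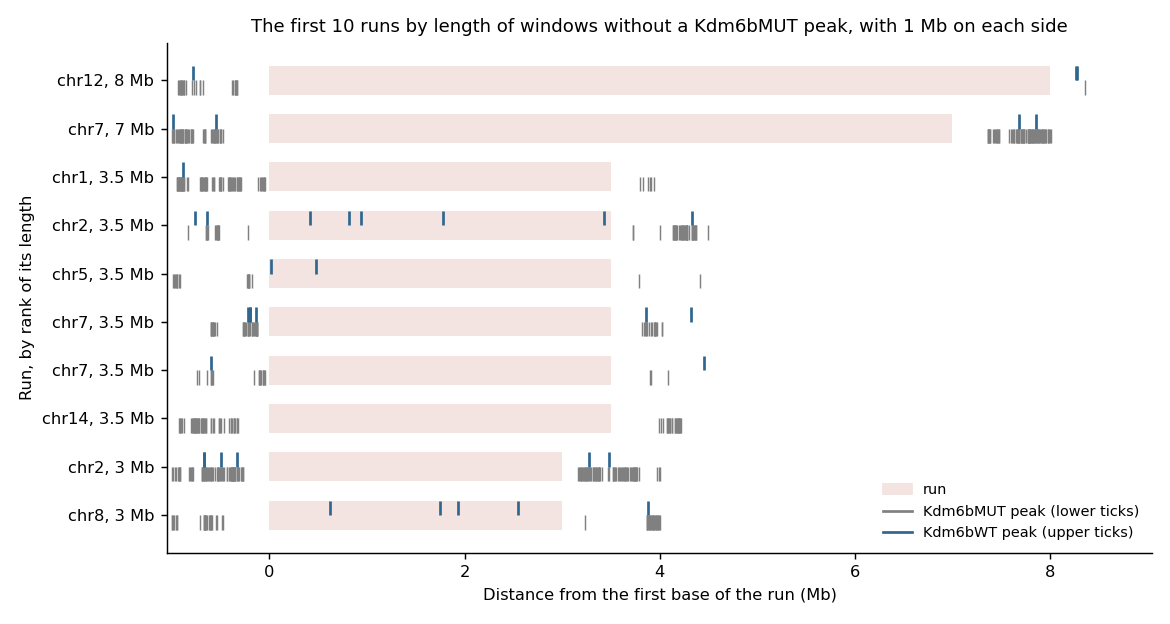
The first 10 runs by length, with ties in order of chromosome, are shown as shaded bars, with the distance from the first base of the run in Mb on the x axis and 1 Mb of flanking sequence on each side. Lower grey ticks are Kdm6bMUT peaks and upper blue ticks are Kdm6bWT peaks. Within the shaded bars Kdm6bWT peaks appear in the runs on chr2 (3.5 Mb), chr5 and chr8, with 5, 2 and 4 peaks, and in none of the other 7. The run of 3 Mb on chr14, tied with the last 2 bars, is not drawn.

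Long runs differed in whether they held Kdm6bWT peaks. Of the 20 runs of 5 or more windows, 11 had no Kdm6bWT peak over 42.5 Mb, namely 4 on chromosome 7, 3 on chromosome 14 and 1 each on chromosomes 1, 2, 12 and 13. The other 9 runs held 28 Kdm6bWT peaks over 25 Mb, or 1.12 per Mb, a value raised by leaving out the empty runs. The highest density among them was in the run on chromosome 11 from 85000001 to 87500000, with 7 peaks or 2.80 per Mb. That run was picked for its value and has no counting interval, so it was not ranked against occupied windows. The division into runs with and without Kdm6bWT peaks was also made after the values were seen, and it was not tested against chance. Across all 580 runs, 205 held at least 1 Kdm6bWT peak midpoint. Singles held 0.666 Kdm6bWT peaks per Mb (95% exact Poisson interval 0.554 to 0.795), pairs 0.640 and runs of 3 or 4 windows 0.648 (0.515 to 0.804). In runs of 5 to 7 windows the density was 0.533 (0.354 to 0.771), and the 2 longest runs had 0 peaks in 15 Mb. The intervals cover counting error only.

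**Figure D3:**
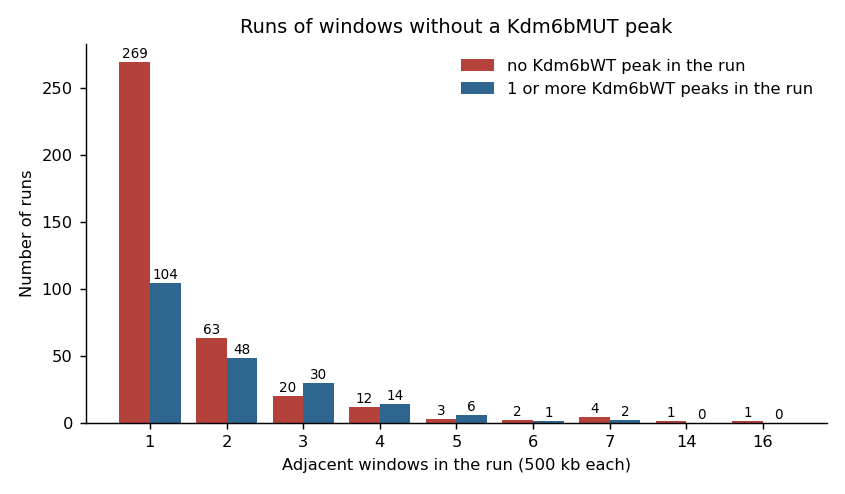
Number of runs (y axis) by the number of adjacent peak-free windows in them (x axis), for runs with no Kdm6bWT peak midpoint (red) and with at least 1 (blue). The 373 single windows divide into 269 without and 104 with a Kdm6bWT peak midpoint, and the runs of 14 and 16 windows have none.

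Known gene clusters could be described only by chromosome. The gene table at hand is for GRCm38, peaks extend past its last gene on 7 autosomes, and coordinates were not converted, so no gene was placed on a window. Chromosome 7, with 4 long runs that were all empty of Kdm6bWT peaks, carries more vomeronasal receptor and Zfp genes than any other autosome. It also has the most protein-coding genes of any autosome, 2030 of 20665. In the GRCm38 table it has 126 of 230 autosomal Vmn1r genes and 52 of 122 Vmn2r genes, which encode pheromone receptors of the vomeronasal organ. It also has 93 of 388 Zfp genes, which encode zinc-finger proteins, many of them transcriptional repressors. Its largest tandem cluster of these families is 86 Vmn1r genes from Vmn1r91 to Vmn1r183, between Nlrp9b and Zfp180. Further clusters on this chromosome include 35 secretoglobin genes, from Scgb2b1 to Scgb1b30. Of 1104 autosomal Olfr genes, which encode odorant receptors, chromosome 7 has 239, fewer than the 287 on chromosome 2. Its largest clusters of that family hold 73 and 42 of them.

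By these symbol counts, other chromosomes did not follow one pattern. Only symbols of Zfp and a digit were counted, so zinc-finger genes under other names were missed. Clusters were sought only among protein-coding genes of the families searched, so arrays of other genes or gene types are not listed. Chromosome 12, with the longest run, has no Olfr, Vmn1r or Vmn2r gene in the table and 6 Zfp genes, and its largest listed cluster is 23 serpin A genes (protease inhibitors) from Serpina10 to Serpina3n. Chromosome 14, with 3 long runs empty of Kdm6bWT peaks, has 39 Olfr genes and no Vmn1r gene. Chromosome 6, with 51 Vmn1r genes, and chromosome 9, with 130 Olfr genes, had no run of 5 or more windows. The largest cluster of the families searched, 222 Olfr genes between Lrrc55 and Ptprj, is on chromosome 2, where 1 of 2 long runs was empty in both lists. Chromosome 13, with 1 such run, has a cluster of 23 Zfp genes from Zfp712 to Zfp273 and one of 35 Vmn1r genes from Vmn1r188 to Vmn1r223. Whether any of these clusters lies inside a run was not tested. Overall gene content did not order the chromosomes either. The highest share of peak-free windows (chromosome 12) and the lowest (chromosome 18) went with nearly the same number of protein-coding genes per window, 2.86 and 2.90.

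Kdm6bWT peaks were scarcer in peak-free than in occupied windows. At least 1 Kdm6bWT peak midpoint lay in 252 of the 984 peak-free windows, a share of 25.6% (95% exact binomial interval 22.9% to 28.5%), against 51.6% of all autosomal windows. In occupied windows the share was 58.3% (56.7% to 59.9%). Windows with no Kdm6bWT peak midpoint made up 48.4% of all autosomal windows, and 732 of the peak-free ones. No peak of either list touched 731 of the peak-free windows. Among peak-free windows 206 held 1 peak, 40 held 2, 5 held 3 and 1 held 4, whereas an occupied window held up to 13.

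In density, peak-free windows held 305 Kdm6bWT peaks, or 0.621 per Mb, and occupied windows held 4483, or 2.33 per Mb. The ratio was 0.266 (95% exact interval 0.236 to 0.299, counting error only), and without the shortened windows it was 0.264 (0.235 to 0.297). By length, Kdm6bWT peaks covered 0.0372% of peak-free and 0.166% of occupied windows, a ratio of 0.224. Peak-free windows, at 20.4% of the tiled length, held 6.37% of the autosomal Kdm6bWT peaks (5.69% to 7.10%). With 1 library per injection and neighbouring windows that are not independent, no p-value is given for these differences.

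The difference was much smaller against occupied windows that carried little Kdm6bMUT coverage. Occupied windows were sorted by Kdm6bMUT coverage into 10 classes of equal size. They rose from 0.789 Kdm6bWT peaks per Mb (0.668 to 0.925) in the lowest class to 5.81 (5.48 to 6.16) in the highest, and each class was above the one before. The interval of the lowest class overlapped that of the peak-free windows, 0.553 to 0.695 per Mb. Against the lowest quartile of occupied windows the ratio was 0.648 (0.559 to 0.750). Sequence outside Kdm6bMUT peaks in occupied windows held 2081 Kdm6bWT peaks that touched no Kdm6bMUT peak, or 1.24 per Mb. Against this sequence the ratio was 0.499 (0.441 to 0.563), a comparison added after the data had been seen. These 2081 peaks lay a median of 5.15 kb from the nearest Kdm6bMUT peak, so many of them flank domains.

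**Figure D4:**
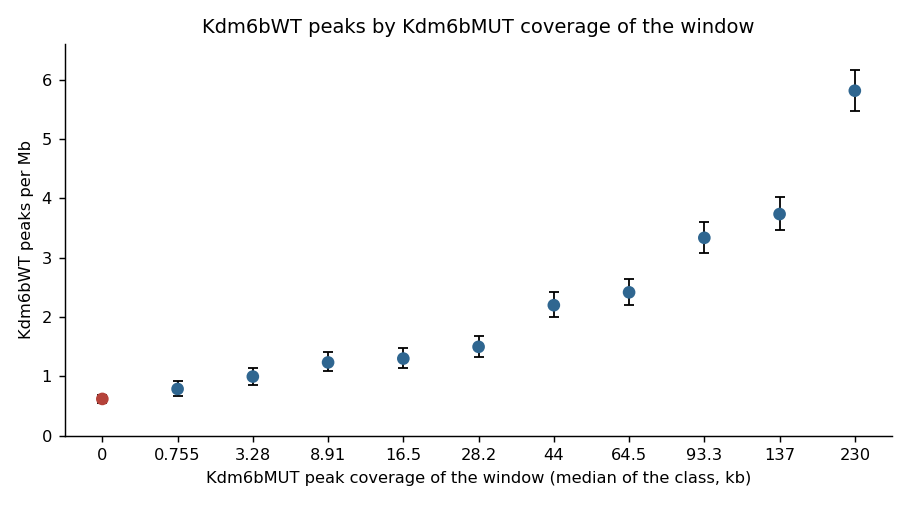
Kdm6bWT peaks per Mb (y axis) in peak-free windows (red) and in 10 equal classes of occupied windows by Kdm6bMUT coverage (blue), labelled on the x axis with the median coverage of the class in kb. Bars are 95% exact Poisson intervals. Values go from 0.621 at no coverage to 5.81 in the most covered class.

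The lower Kdm6bWT density in peak-free windows was present on 19 of the 19 autosomes, to different degrees. It was lowest relative to occupied windows on chromosome 7, with 7 peaks in 70 peak-free windows (0.200 per Mb) against 2.29 per Mb in occupied ones, a ratio of 0.0874. Chromosome 17 followed with 5 peaks in 33 windows (0.303 against 2.42 per Mb). The ratio was highest on chromosome 19, at 0.651, where 20 peak-free windows held 14 peaks (1.40 against 2.15 per Mb). There 11 of the 20 peak-free windows, or 55.0%, had a Kdm6bWT peak. Chromosome 11 had the second highest density in peak-free windows, with 28 peaks in 53 windows (1.07 per Mb). The range over chromosomes was 0.200 to 1.40 per Mb in peak-free windows and 1.89 to 2.75 per Mb in occupied ones, so the groups did not overlap. By position, peak-free windows held 0.545 Kdm6bWT peaks per Mb in the first 10 Mb and 0.722 beyond 50 Mb, while occupied windows held 1.65 and 2.55.

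**Figure D5:**
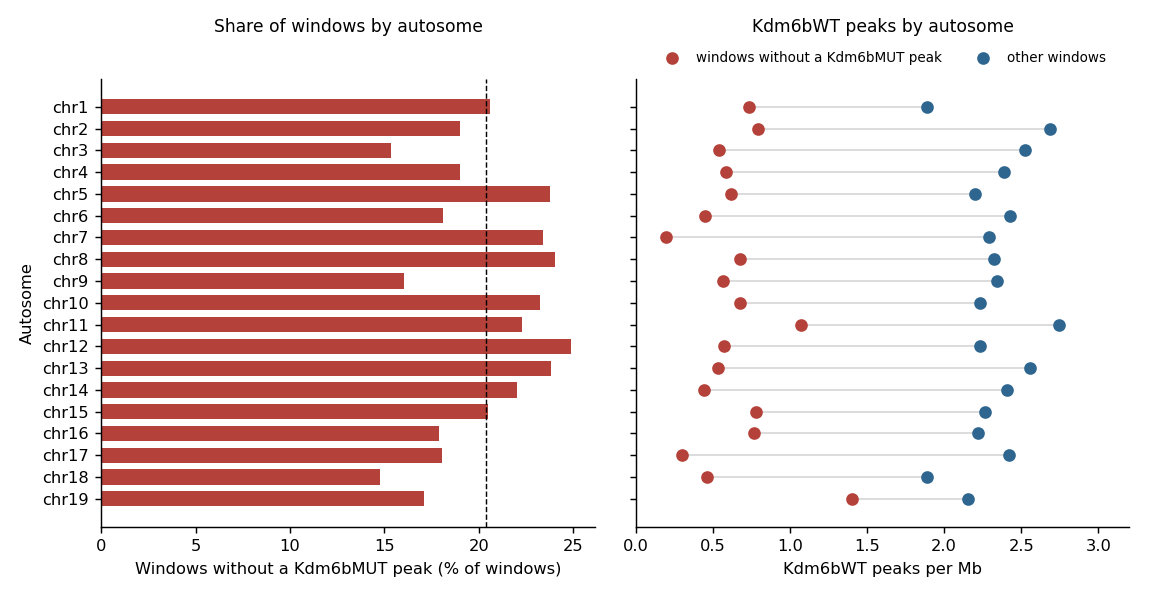
Left, the share of peak-free windows on each autosome in percent, with a dashed line at the value over all autosomes (20.4%). Right, Kdm6bWT peaks per Mb in peak-free (red) and occupied windows (blue) of the same autosome. The red points lie to the left of the blue points on all 19 autosomes, from 0.200 on chr7 to 1.40 on chr19.

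The Kdm6bWT peaks in peak-free windows had widths close to those of other Kdm6bWT peaks outside Kdm6bMUT domains. Their median width was 408 bases (quartiles 300 and 802). It was 435 bases (300 and 859) for the 2081 Kdm6bWT peaks off Kdm6bMUT domains in occupied windows and 584 bases (336 and 1070) for those on them. Peaks of 1 kb or more made up 18.4%, 18.8% and 28.8% of these classes. The fold enrichment over input deposited by the authors had a median of 3.84 in peak-free windows, 3.85 off domains and 3.84 on domains. The score, which is 10 times the −log10 q, had a median of 13 and a lower quartile of 11 in each class. In peak-free windows scores went down to 10, so the medians lie near the lowest scores. Peaks of exactly 300 bases made up 28.9%, 28.3% and 19.3% of the classes. Like medians so near the lowest scores do not show like signal. None of the 305 peaks touched a Kdm6bMUT peak, as follows from the choice of windows except at their edges. Their median distance to the nearest one, set in part by that choice, was 402 kb. It was 5.15 kb for the 2081 peaks off domains in occupied windows.

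The 3 highest-scoring Kdm6bWT peaks of the peak-free windows were 454 to 672 bases wide, above the median of 408 bases. A site of 513 bases on chromosome 10 (75255564 to 75256076) had the top score, 200, at 11.9-fold enrichment, and ranked 9 by score among all autosomal Kdm6bWT peaks. Next were a peak of 672 bases on chromosome 17 (36368009 to 36368680, score 171, 8.46-fold) and one of 454 bases on chromosome 15 (8734434 to 8734887, score 81, 6.21-fold). The nearest Kdm6bMUT peak was 452 kb, 373 kb and 498 kb away from these 3 sites. Whether these sites also collect reads in other libraries was not tested. The widest peaks, against score quartiles of 11 and 16 over the 305, measured 2587 bases on chromosome 2 (12153375 to 12155961, score 10), 1809 bases on chromosome 10 (118975545 to 118977353, score 17) and 1774 bases on chromosome 4 (108011953 to 108013726, score 13).

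Kdm6bWT coverage stayed low even in the peak-free windows that had the most. The chromosome 2 window from 12000001 to 12500000 had 2.59 kb, or 0.517% of its length, from the single wide peak just named. It was followed by chromosome 2 from 9000001 to 9500000 (2.10 kb in 2 peaks) and chromosome 4 from 137500001 to 138000000 (2.03 kb in 2 peaks). Chromosome 15 from 62000001 to 62500000 had 2.01 kb in 3 peaks, and chromosome 2 from 20500001 to 21000000, inside the long run there, had 1.95 kb in 2 peaks. The window with 4 Kdm6bWT peaks was on chromosome 16 (17000001 to 17500000), where they covered 1.76 kb.

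The limit between the groups is fine-grained. The least covered occupied windows had 300 bases of Kdm6bMUT peaks, the smallest peak width, and 48 windows were at this value. Among the first 5 by position, those on chromosome 1 (21500001 to 22000000) and chromosome 2 (13000001 to 13500000 and 16500001 to 17000000) had no Kdm6bWT peak. A window on chromosome 2 from 50000001 to 50500000 had 1 Kdm6bWT peak, and one from 150500001 to 151000000 had 3, covering 2.32 kb. In all, 313 occupied windows were touched by a single Kdm6bMUT peak, and they held 0.810 Kdm6bWT peaks per Mb. On the inner side of the limit, 32 peak-free windows had a Kdm6bMUT peak within 10 kb of their edge. The median distance from the edge was 208 kb, and 199 windows had none within 500 kb.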

How the data were processed

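The 2 H3K27me3 peak lists were used, 1 per injection. Per the submitters' processing notes, Bowtie2 2.2.2, MACS2 and the build mm9 were used in the series, without a statement of which step used which; no source used here gives the settings of the peak caller. Each peak carries a fold enrichment (ChIP over input), a −log10 p, a −log10 q and a whole-number score, all as deposited by the authors. Positions are given counted from 1. Read depth is unknown, so the precision of a peak list cannot be stated.

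Windows were tiled in pandas 2.3.3 and numpy 2.4.6, intervals came from scipy 1.17.1 and plots from matplotlib 3.10.9, all under Python 3.11.15. The last window of a chromosome was shorter (19 windows, 2 of them peak-free). A Kdm6bWT peak was counted in the window of its midpoint. Intervals are 95% exact binomial (Clopper-Pearson) or Poisson intervals, and that of a ratio of densities comes from the binomial one. The code was tested on simulated data. No test between groups was made.

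The windows and lists were chosen with earlier results of these data known. Named regions are the 10 longest runs (ties ordered by chromosome number, which leaves out a run of 3 Mb on chromosome 14 tied with the last 2), the 5 peak-free windows with most Kdm6bWT coverage, the 3 highest-scoring and 3 widest Kdm6bWT peaks in them, the 5 least covered occupied windows and the 3 highest and lowest chromosomes. Any other named region was picked after seeing its values. Families (31 searched by symbol) formed a cluster where at least 5 protein-coding members had at most 3 other genes between neighbours. Planned gene counts in windows, base composition and unsequenced bases were not made, because no mm9 genome or annotation was used. RNA-seq was not analysed here.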

Additional observations from a re-analysis of the deposited data

How the results depend on the processing

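No paired analysis was possible because there is only 1 ChIP library per injection. Alternative settings gave 49 values, of which 38 stayed close to the one reported and 11 did not. Close meant within 1.5-fold for the number of windows and the longest run, and inside the 95% counting interval for ratios. For covered bases this was an interval of the same relative width as for peaks, 0.199 to 0.251. A reversal was defined only for the ratios, and 0 of them reversed. Windows of 250 kb gave 3333 peak-free windows and windows of 1 Mb gave 194, as smaller windows are more often empty by construction. The count also depended on how weak a Kdm6bMUT peak was admitted. With only Kdm6bMUT peaks at or above the lowest −log10 p of the Kdm6bWT list (3.67), 1443 windows (29.9%) were peak-free. Allowing up to 1 kb of Kdm6bMUT coverage gave 1239 (25.6%). Both counts are within 1.5-fold of the one reported. The ratio of Kdm6bWT density in peak-free to other windows stayed below 1 in all 16 alternatives run, from 0.202 to 0.648, and the ratio of covered bases in all 15, from 0.179 to 0.520. With Kdm6bWT peaks of at least 1 kb the ratios were 0.202 (peaks) and 0.179 (bases); against windows directly beside a peak-free one they were 0.321 and 0.286, and against the lowest quartile of Kdm6bMUT coverage 0.648 and 0.520. The cause of these shifts was not tested. Of the settings chosen after seeing the data, sequence outside Kdm6bMUT peaks gave 0.499 and 0.463, and leaving out chromosomes 7 and 12 shortened the longest run to 3.5 Mb, since they hold the 2 longest.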
